A study of Mus musculus with 4 samples.

Results

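The genes described here are 10 components of the mammalian circadian clock and of the transcription factors tied to it that act through the D-box. They are the activators *Arntl* and *Clock*, the repressors *Per1*, *Per2*, *Per3*, *Cry1* and *Cry2*, the PAR-bZIP (proline and acidic amino acid-rich basic leucine zipper) activators *Dbp* and *Tef*, and their antagonist *Nfil3*. They were chosen by name, and all their probes on the array were taken, which gave 14 of 39429 probes and 10 of 29676 gene names. The measurements came from astrocyte-enriched cultures (AECs) of mouse brain, hybridized with a single dye to 4 gene expression arrays. According to the methods, mixed glia from the cortex of newborn ICR mice, with several pups taken from a litter, had been treated with PLX3397, an inhibitor of the CSF1 receptor, to deplete microglia, so both groups had received this compound. The groups were untreated AECs (n = 2) and AECs kept for 15 h under oxygen-glucose deprivation (OGD, n = 2), a model of ischemia in which cells are held in glucose-free medium with almost no oxygen. Loss of oxygen, loss of glucose and the change of medium were applied together and cannot be told apart here. The clock hour at which RNA was taken, and whether the untreated wells received fresh medium when OGD began, are not given in the sources used here.

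In the clock of most mammalian cells, the proteins of *Arntl* (also called BMAL1) and *Clock* pair up and switch on genes that carry an E-box, the *Per* and *Cry* genes and *Dbp* among them. PER and CRY proteins accumulate, enter the nucleus and shut off that pair, and their breakdown lets the next cycle begin. A second loop joins the first, in which REV-ERB and ROR nuclear receptors compete over *Arntl* and *Nfil3*. DBP, TEF and HLF activate genes through the D-box, and NFIL3 (E4BP4) binds the same element and represses them. Astrocytes carry this clock, and cultured cells run it out of step with each other unless a stimulus such as fresh serum or glucocorticoid resets them.

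The promoter windows of members in which an intact E-box or D-box was found are shown first, since the clock described above acts through these elements. The windows are from RefSeq on GRCm38.p6, which held 14 windows for 9 of the 10 members, *Per2* being the other. Each window ran from 250 bases before to 50 bases after a transcription start, and the lines give the stretch around the match, 5′ to 3′ on the strand of the gene, with the element in capitals (the E-box CACGTG in the first lines, the D-box TTATGTAA in the last).
Per1, chr11:69098756-69098815, plus strand: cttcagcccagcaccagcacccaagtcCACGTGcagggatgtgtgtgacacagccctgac
Cry1, chr10:85185082-85185141, minus strand: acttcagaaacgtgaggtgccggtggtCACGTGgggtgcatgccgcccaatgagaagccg
Tef, first start, chr15:81802519-81802578, plus strand: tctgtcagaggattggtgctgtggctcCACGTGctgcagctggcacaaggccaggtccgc
Tef, second start, chr15:81811249-81811308, plus strand: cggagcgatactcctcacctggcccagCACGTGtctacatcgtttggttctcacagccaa
Per3, chr4:151044813-151044872, minus strand: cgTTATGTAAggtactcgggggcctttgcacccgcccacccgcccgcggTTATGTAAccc

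The E-box began 166 bases before a start of *Per1*, 60 before that of *Cry1*, and 127 and 138 before the starts of *Tef*. *Per3* held a pair of D-boxes, 205 and 158 bases before its start. Of 32851 promoter windows of this length, 7.15% held CACGTG and 0.938% held TTATGTAA, which was searched on both strands and so includes TTACATAA. A second D-box spelling, TTACGTAA, was found in 0.119% of all windows and in no window of a member. The cAMP response element TGACGTCA, through which resetting signals act, was in 1.79% of all windows and in none of these. The letters ACGTG, the core of the hypoxia response element and also part of every CACGTG, were in 19.6% of all windows. Outside an E-box they occurred in *Cry1*, *Cry2* and *Dbp*, at 78, 165 and 227 bases before the start. None of these letters were found in the windows of *Arntl*, *Clock* and *Nfil3*, which says only that they are not in these windows. The members with an E-box in the window did not share a call in the main comparison described below: *Per1* rose, *Tef* fell and *Cry1* was not called. The direction of *Per1*, which held the E-box in only 1 window, depends on the scaling of the arrays, and *Cry1* was dim. Any part of the E-box in these changes was not tested.

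**Figure D1:**
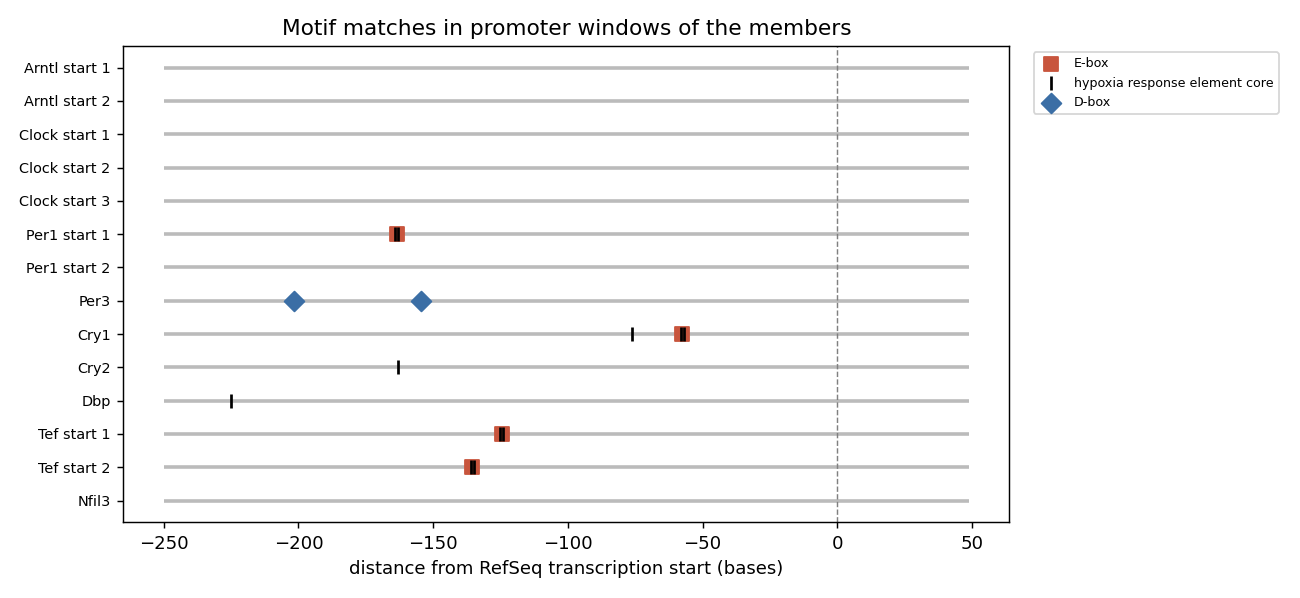
Motif matches in the 14 RefSeq promoter windows of 9 members, with the distance from the transcription start in bases on the x axis and 1 line per start. Squares mark the E-box, diamonds the D-box and ticks the hypoxia response element core. E-boxes lie in 1 window of *Per1*, in that of *Cry1* and in both of *Tef*, and the D-boxes lie only in that of *Per3*.

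Each array gave a processed signal per spot, and the log2 signal minus the 75th percentile of its own array is called the normalized signal here. The groups were compared with limma, with Benjamini–Hochberg adjustment over 28254 probes that were well above background on both arrays of a group, and a probe was called at an adjusted p below 0.05. No saturated spot was found, and replicate arrays correlated across probes at 0.998 (untreated) and 0.995 (OGD). Between 64.5% and 73.7% of the spots on an array were well above background, fewer on both OGD arrays. The 75th percentile itself was lower after OGD by 1.37 on the log2 scale, while the spike-in controls differed by -0.084. Scaling to those controls therefore moved the median log2 fold change of all probes from 0.18 to -1.11. Calls with a change over 2-fold numbered 3938 higher and 4170 lower with the percentile scaling, 653 and 15526 with spike-in scaling, and 7122 and 1838 after a normexp background correction. Leaving out an untreated array lowered the 18354 calls at any fold to 11559 (replicate 1) or 10742 (replicate 2). Of the astrocyte markers, 10 of 10 were well above background on all arrays, *Gfap* and *Aldh1l1* included, and their summed processed signals were 358850 and 321650 in untreated AECs and 201920 and 180700 after OGD, or 149 to 168 times and 228 to 233 times the 75th percentile, so the direction depends on the scaling. Of these markers 6 rose and 1, *Sox9*, fell (log2 fold change -1.52), where 37.9% of all tested probes were called higher and 27.1% lower. Of the microglial markers 7 of 8 were, with summed processed signals of 11385 and 10703 in untreated AECs and 10429 and 8927 after OGD, or 4.95 to 5.33 times and up to 11.8 times the 75th percentile, and *Cd68*, a lysosomal protein, carried the increase relative to the percentile (log2 fold change 3.14) while *Tmem119* fell by 0.88. *Cx3cr1* was not well above background after OGD. The sums were 29.4 to 29.6 and 25.7 to 26.6 for the oligodendrocyte lineage, 7.93 to 8.35 and 8.38 to 8.66 for neurons, and 10.21 to 12.02 and 8.06 to 10.4 for meningeal fibroblasts and vessels, without *Col1a1*, whose spot was an outlier on an OGD array. Single markers differed under these sums. In the oligodendrocyte lineage 4 of 10 were called higher (*Mbp* at 1.19) and 4 lower (*Olig2* at -2.50, *Pdgfra* at -1.27). The counts were 3 and 2 of 6 for neurons (*Nefl* at 1.95), and 0 and 1 of 7 tested for fibroblasts and vessels (*Pdgfrb* at -2.42). *Cldn5* of the last list was not well above background on any array and was not tested. The shares of 37.9% and 27.1% over all tested probes apply to these counts too. The part of these lists in the results below was not tested. In cultures of mixed cells, fewer cells of a type and less RNA per cell cannot be told apart.

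All 14 probes of the members were tested, and 13 were well above background on all 4 arrays. By the brightest probe of each gene, 3 members rose (*Arntl*, *Per1* and *Nfil3*), 5 fell (*Per2*, *Per3*, *Cry2*, *Dbp* and *Tef*) and 2 were not called (*Clock* and *Cry1*). Over all probes tested, 65% were called, 37.9% higher and 27.1% lower, so 8 called members of 10 lie near the background. With a change over 2-fold there were 2 members higher and 4 lower, against 13.9% and 14.8% of all probes, or 28.7% in both directions. Only *Nfil3* among the members passed the fold of 10 that the methods used, which 1.33% of all probes did (0.811% higher and 0.524% lower). The median log2 fold change of the members was -0.29 and the range -2.89 to 3.74, where the 5th and 95th percentiles of all probes were -1.90 and 1.62. The normalized signals did not overlap between groups for 9 members, 4 higher and 5 lower after OGD, and the same held for 84.7% of all probes, 49.2% higher and 35.5% lower. With 2 arrays against 2, an exact two-sided permutation test of a single gene cannot give a p below 0.333, so the tests rest on the spread that limma shares over probes. The p-values measure the spread between these cultures only.

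**Figure D2:**
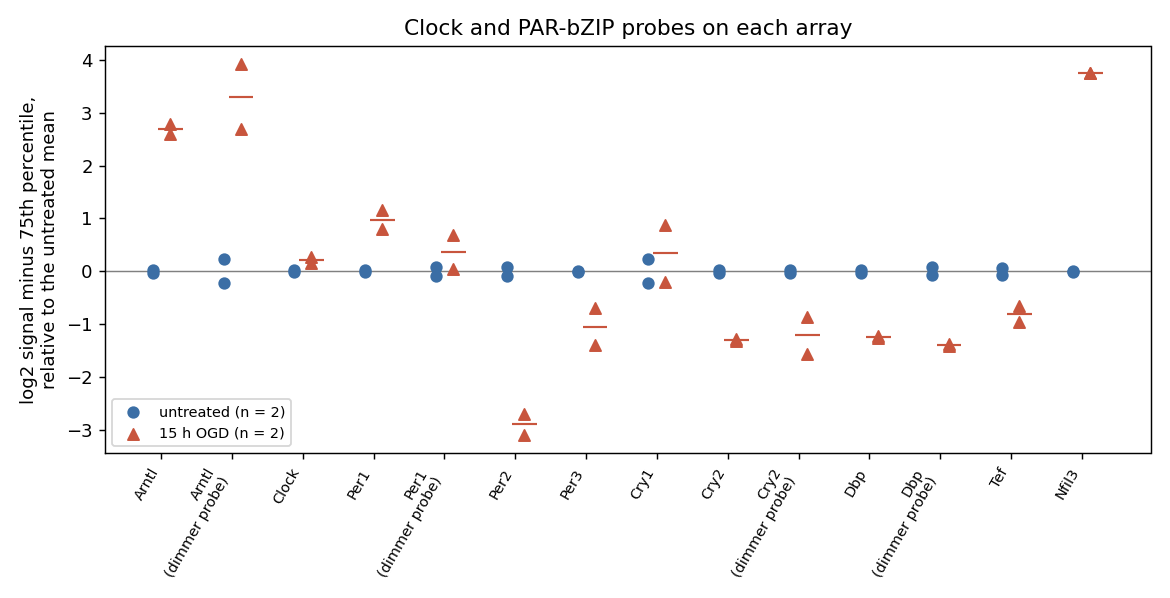
Normalized signal of every probe of the 10 members on each array, on a log2 scale and relative to the mean of the untreated arrays (y axis), by gene (x axis). Circles are untreated AECs, triangles are AECs after 15 h of OGD, and bars are OGD means (n = 2 each). *Nfil3* and *Arntl* sit highest after OGD and *Per2* lowest.

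The activating pair of the clock changed unequally, since *Arntl* rose 6.47-fold whereas *Clock* was not called. *Arntl*, whose protein is the obligate partner of CLOCK, had processed signals of 2630 and 2563 in untreated AECs and of 7389 and 5686 after OGD. Both OGD arrays were above both untreated arrays before any scaling. The normalized signal went from 0.27 ± 0.040 to 2.97 ± 0.13 (mean ± SD, n = 2 each), a log2 fold change of 2.69 (SE 0.10, limma adjusted p = 0.000765), and 98.4% of all tested probes had a lower one. The probe lies at chr7:120457261-120457320 of mm9, which is the build of the probe positions. A dimmer *Arntl* probe, upstream at chr7:120386502-120386561, read 16.9 and 12.6 in untreated AECs and 39.0 and 79.1 after OGD. It rose too, by a log2 fold change of 3.30 (SE 0.47, limma adjusted p = 0.00665). With spike-in scaling the increase of the brighter probe was 1.40 on the log2 scale, the lowest under the 17 alternative settings.

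*Clock*, which encodes the other partner of the activating pair, read 2942 and 2905 in untreated AECs and 1460 and 1179 after OGD. The unscaled signal was lower on both OGD arrays, and the normalized signal was slightly higher on both, at 0.66 ± 0.083 against 0.44 ± 0.027 (SD, n = 2 each). The log2 fold change was 0.22 with a 95% interval of -0.026 to 0.46 (limma adjusted p = 0.0936), and with spike-in scaling it was -1.07 (limma adjusted p = 0.00066), so its direction depends on the scaling. The ratio of *Arntl* to *Clock* within an array needs no scaling. It was 5.56-fold higher after OGD, a log2 difference of 2.48 with a pooled SD of 0.036, and between 2.43 and 2.52 over the 4 pairings of an OGD array with an untreated array.

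The *Per* genes, whose proteins form the core of the repressor complex and which are also the targets of resetting signals, went in different directions. *Per2* had the deepest decrease of the members. It read 535 and 481 in untreated AECs and 24.6 and 28.5 after OGD, where the probe was still well above background. The normalized signal fell from -2.08 ± 0.12 to -4.97 ± 0.28 (SD, n = 2 each), a log2 fold change of -2.89 (SE 0.17, limma adjusted p = 0.00120) or 7.40-fold lower. Only 1.08% of all tested probes had a lower log2 fold change. The size depends on the background correction, since normexp gave -1.37, while the probe was called lower under all 17 alternative settings.

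*Per1* read 4924 and 5116 in untreated AECs and 3632 and 4025 after OGD. The unscaled signal was lower on both OGD arrays as well, while 85.1% of all tested probes had a lower log2 fold change. The normalized signal rose from 1.22 ± 0.025 to 2.20 ± 0.24 (SD, n = 2 each), a log2 fold change of 0.98 (SE 0.14, limma adjusted p = 0.00709), and with spike-in scaling it was -0.31 (limma adjusted p = 0.0973). The call was lost without untreated replicate 1 (adjusted p = 0.0517) and without replicate 2 (adjusted p = 0.051). A dimmer *Per1* probe upstream, at chr11:68919895-68919954 against chr11:68923364-68923423 for the bright probe, read 20.2 and 23.0 in untreated AECs and was not well above background on either OGD array (9.23 and 12.5).

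The last 30 bases of the probes of *Arntl* and *Per1* are printed because the dimmer probe of each lies upstream of the brighter one.
Arntl, brighter: gtaacttcagacaaagtggaactaaacctg
Arntl, dimmer: ttaaatgataaacatttaacatcctacagt
Per1, brighter: atttgtgtttttgatattgtgtctgttatt
Per1, dimmer: ctccttgttaaccctggtctttccccacag
Both dimmer probes carry an Ensembl transcript as their target in the array's design, and both brighter probes a RefSeq transcript. Whether the probes lie in an exon or a UTR was not analysed here, since no annotation of mm9 was used.

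*Per3*, the member of the family least needed for the rhythm, read 134 and 138 in untreated AECs and 21.3 and 30.4 after OGD. Its normalized signal fell from -3.98 ± 0.014 to -5.03 ± 0.49 (SD, n = 2 each), a log2 fold change of -1.05 (SE 0.26, limma adjusted p = 0.0300). This is the weakest of the calls, and the value was -0.70 without OGD replicate 1 and -1.40 without OGD replicate 2. It was lost without untreated replicate 1 (adjusted p = 0.112) or 2 (adjusted p = 0.12), and the value was 0.20 after normexp (adjusted p = 0.175). The ratio of *Per1* to *Per2* within an array was 14.6-fold higher after OGD (log2 difference 3.87, pooled SD 0.11, from 3.734 to 4.003 over the pairings). That of *Per1* to *Per3* was 4.07-fold higher, so the *Per* genes parted from each other whatever the scaling of the arrays. The background correction did change these ratios, to 5.18-fold and 1.76-fold after normexp.

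The *Cry* genes encode the partners of PER that bind CLOCK and ARNTL directly. *Cry2* read 17200 and 18197 in untreated AECs and 3023 and 2564 after OGD, lower on both OGD arrays. The normalized signal fell from 3.04 ± 0.044 to 1.75 ± 0.032 (SD, n = 2 each), a log2 fold change of -1.29 (SE 0.079, limma adjusted p = 0.00123) or 2.45-fold lower. A second *Cry2* probe, at chr2:92251417-92251476 against chr2:92243807-92243866, went from 658 and 637 to 90.2 and 129 and was 2.31-fold lower (limma adjusted p = 0.0213). *Cry1* was dim in all cultures, at 78.3 and 57.9 in untreated AECs and 51.1 and 21.1 after OGD, and its normalized signals overlapped. Its log2 fold change was 0.34 with a 95% interval of -0.87 to 1.55 (limma adjusted p = 0.523). It was -0.20 without OGD replicate 1, 0.88 without OGD replicate 2, and -0.95 with spike-in scaling, and only the normexp correction called it (0.85, limma adjusted p = 0.000952).

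The D-box factors went in opposite directions, with both activators lower and their antagonist higher after OGD. *Nfil3* had the greatest increase of the members, 13.4-fold. It read 3165 and 3179 in untreated AECs and 17469 and 15412 after OGD, and both OGD arrays stood above both untreated arrays before any scaling. The normalized signal rose from 0.56 ± 0.0093 to 4.31 ± 0.0078 (SD, n = 2 each), a log2 fold change of 3.74 (SE 0.074, limma adjusted p = 0.000729). Only 0.531% of all tested probes had a higher one. With spike-in scaling it was 2.46, the lowest of its values under 17 alternative settings.

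*Dbp* and *Tef*, which activate genes of detoxification and metabolism through the D-box, were both bright. *Dbp* read 49060 and 47644 in untreated AECs and 8575 and 7275 after OGD. The normalized signal fell from 4.49 ± 0.044 to 3.25 ± 0.032 (SD, n = 2 each), a log2 fold change of -1.24 (SE 0.079, limma adjusted p = 0.00132) or 2.36-fold lower. A second *Dbp* probe, at chr7:52965461-52965520 next to the first at chr7:52965322-52965381, was 2.62-fold lower (limma adjusted p = 0.00143). *Tef* read 29672 and 27521 in untreated AECs and 7470 and 5348 after OGD. Its log2 fold change was -0.80 (SE 0.14, limma adjusted p = 0.0104), or 1.75-fold lower, and 19.0% of all tested probes had a lower one. The *Tef* call was lost without untreated replicate 1 (adjusted p = 0.0692) or 2 (adjusted p = 0.055).

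The second *Dbp* probe and the *Nfil3* probe each contain AATAAA, the letters of the polyadenylation signal, in capitals in the last 30 bases below. They are shown because these genes of the D-box branch changed in opposite directions.
Dbp, second probe: caacacaatcctgAATAAAtcttgagaacc
Nfil3: agtttcAATAAAggattggtggcaagcaca
The ratio of *Nfil3* to *Dbp* within an array was 31.7-fold higher after OGD, a log2 difference of 4.99 with a pooled SD of 0.037, and lay between 4.93 and 5.04 over the 4 pairings. That of *Nfil3* to *Tef* was 23.4-fold higher. *Arntl* rose by less than *Nfil3*, with a ratio of the former to the latter that was lower after OGD by 1.05 on the log2 scale, and the ratio of *Dbp* to *Tef* was lower by 0.44. Ratios within an array are the same under every scaling of whole arrays, and they show unequal change, not which of the paired genes moved. After normexp the ratios of *Nfil3* to *Dbp* and to *Tef* were 27.6-fold and 21.4-fold higher.

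**Figure D3:**
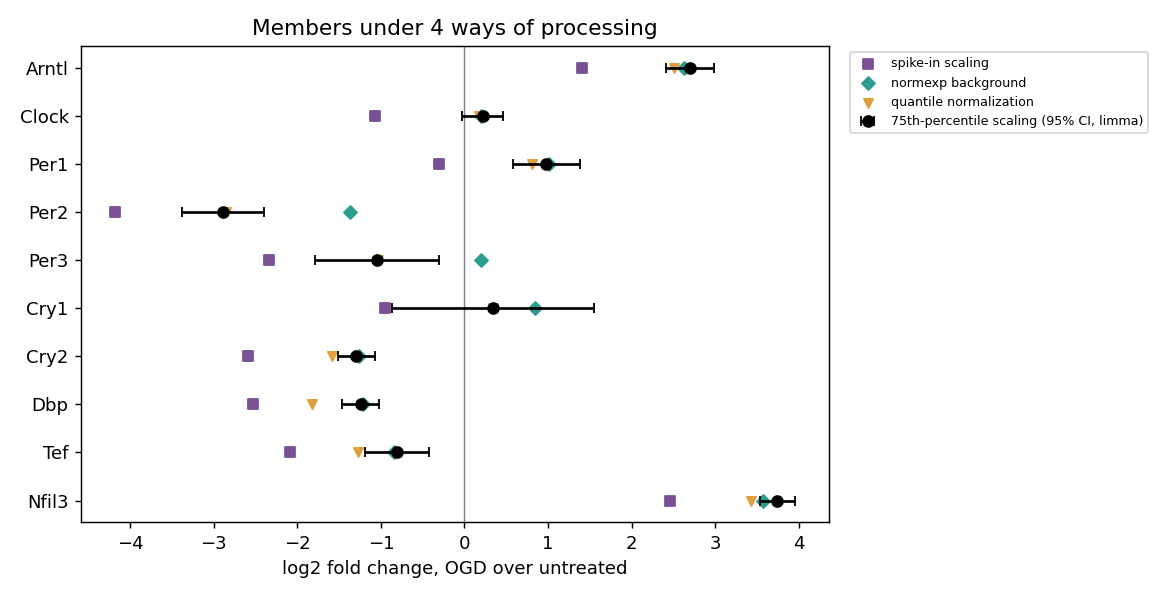
Log2 fold change of OGD over untreated AECs (x axis) for the brightest probe of each member under 75th-percentile scaling (circles, with 95% intervals from limma, n = 2 against 2), spike-in scaling (squares), normexp background correction (diamonds) and quantile normalization (triangles). *Arntl* and *Nfil3* stay above 0 and *Per2*, *Cry2*, *Dbp* and *Tef* below 0 in all of these, while *Per1*, *Clock* and *Cry1* cross 0 with spike-in scaling and *Per3* with normexp.

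Before any scaling, *Arntl* and *Nfil3* were the only members whose processed signal was higher on both OGD arrays than on both untreated arrays, and the other 8 were lower on both. Relative to the median of all probes, which spike-in scaling moved to -1.11, the order of the members stayed the same, because each array is shifted as a whole. With spike-in scaling, and without subtracting that median, the log2 fold changes of *Per2*, *Per3*, *Cry2*, *Dbp* and *Tef* were -4.18, -2.34, -2.58, -2.53 and -2.09. The calls of *Arntl*, *Nfil3*, *Per2*, *Cry2* and *Dbp* kept their direction and their side of the limit under all 17 alternative settings, those that leave out an array included.

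The rest of the pathway was described with 29 other genes of the clock in 4 lists, all of which were tested. Of these, 17 were called higher and 7 lower after OGD, 11 and 4 of them over 2-fold, and the median log2 fold change was 0.68. Over all probes tested, 37.9% were called higher and 27.1% lower, 13.9% and 14.8% with a change over 2-fold, and the median was 0.18. Spike-in scaling turned these counts to 6 higher and 17 lower, so the balance of directions depends on the scaling. It also moved the median log2 fold change of all probes to -1.11, so this turn is not particular to the clock genes. The sizes depend on it too: the increases described below for *Bhlhe40*, *Bhlhe41*, *Ciart*, *Rora*, *Rorb* and *Nampt* were then 1.32, 0.75, 0.88, 0.30, 0.79 and 2.12, and the decreases of *Timeless*, *Btrc* and *Crtc1* were at -3.40, -4.47 and -3.29. Probes of a gene also differed: 16 of the 29 genes had more than 1 tested probe, and 4 (*Rora*, *Csnk1d*, *Gsk3b* and *Creb1*) had a probe called higher and another called lower.

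Of 11 further genes of the loop itself, 6 rose and 2 fell, against 37.9% and 27.1% of all tested probes. The increases included the repressors of the activating pair other than PER and CRY. *Bhlhe40* (DEC1), which competes for the E-box, read 2562 and 2431 in untreated AECs and 6015 and 5757 after OGD, a log2 fold change of 2.61 (SE 0.094, limma adjusted p = 0.000752). Its relative *Bhlhe41* rose by 2.04 and by 0.75 on its 2 probes. *Ciart* (CHRONO), which binds ARNTL and represses it, went from 313 and 287 to 556 and 486, a log2 fold change of 2.17 (SE 0.091, limma adjusted p = 0.000799). The brightest probes of these genes were higher on both OGD arrays before scaling as well.

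Among the nuclear receptors of the second loop, *Nr1d1*, *Rora* and *Rorb* rose by their brightest probe, and probes of the same gene differed. *Nr1d1* (REV-ERBα), a repressor of *Arntl* and *Nfil3*, read 847 and 945 in untreated AECs and 926 and 783 after OGD. Its unscaled signals overlapped and its log2 fold change after scaling was 1.30 (SE 0.091, limma adjusted p = 0.00152), while with spike-in scaling it was 0.013 (limma adjusted p = 0.929). *Nr1d2* was at 0.028 (limma adjusted p = 0.877) by its brightest probe, and the other of its probes rose by 0.61. The activating receptor *Rora* rose by 1.59 by its brightest probe, while a dim probe fell by 0.93 and their mean was not called (0.33, limma adjusted p = 0.122), and *Rorb* rose by 2.07 by one probe and was at -0.15 by the other (limma adjusted p = 0.195).

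*Arntl2*, the paralog of *Arntl*, fell by 1.76 on the log2 scale, from 243 and 218 to 29.4 and 23.3, in the direction opposite to *Arntl*, and was at -0.38 after normexp (limma adjusted p = 0.011) and at -3.05 with spike-in scaling. *Timeless*, which in mammals acts mainly at replication forks, fell by 2.11. *Npas2*, which can stand in for *Clock*, was not well above background after OGD and was not called, although normexp gave a called increase (1.18, limma adjusted p = 3.93e-05). *Hlf*, the PAR-bZIP factor besides *Dbp* and *Tef*, was not called either (log2 fold change 0.27, limma adjusted p = 0.0924), but was called higher after normexp (0.46) and quantile normalization (0.38).

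Of 7 genes that phosphorylate clock proteins or mark them for breakdown, 4 rose and 2 fell, against 37.9% and 27.1% of all tested probes. *Btrc*, which encodes the F-box protein that recognizes phosphorylated PER, read 2444 and 2540 in untreated AECs and 122 and 91.8 after OGD. It fell 9.08-fold (log2 fold change -3.18, SE 0.11, limma adjusted p = 0.000729), and its dimmer probe fell by 0.70. *Fbxw11*, its paralog with the same task, was at 0.66 with percentile scaling and at -0.63 with spike-in scaling. Of the PER kinases, *Csnk1e* was at 0.78 and at -0.51 under the same scalings, and *Csnk1d* fell by 0.33 by its brightest probe and rose by 2.34 by a dimmer one. *Fbxl21*, an F-box protein that binds CRY, was at 0.68 and at -0.61 with spike-in scaling. *Csnk2a1* was at 1.00 (-0.29 with spike-in scaling) and *Gsk3b* at -0.049 (limma adjusted p = 0.591).

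Among 6 output genes of the clock, 3 rose and 2 fell, against 37.9% and 27.1% of all tested probes. *Nampt*, the rate-limiting enzyme of NAD salvage and an E-box target, read 2253 and 2396 in untreated AECs and 9480 and 9583 after OGD. Its increase of 10.6-fold (log2 fold change 3.41, SE 0.11, limma adjusted p = 0.000729) was the only one over 10-fold in the 4 lists. The deubiquitinase *Usp2* fell by 0.64 and *Tspan4* by 0.66, and *Tsc22d3* was at -0.26 (limma adjusted p = 0.0501). The cell cycle kinase *Wee1* was at 1.03 and the P450 reductase *Por* at 0.76, and with spike-in scaling at -0.26 and -0.53, and quantile normalization ended the call of *Por* (0.17, limma adjusted p = 0.128). These outputs did not share a direction.

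Of 5 genes that carry resetting signals to the clock, 4 rose and 1 fell, against 37.9% and 27.1% of all tested probes. *Crtc1*, a coactivator of CREB, went from 2837 and 2807 to 306 and 242 and fell by 2.00 on the log2 scale (SE 0.092, limma adjusted p = 0.000858). Its relative *Crtc2* was at 1.03, or at -0.26 with spike-in scaling. *Sik1*, a kinase that keeps these coactivators out of the nucleus, was at 1.45 and read 251 and 272 in untreated AECs and 261 and 292 after OGD, so its unscaled signals overlapped, and with spike-in scaling it was at 0.16 (limma adjusted p = 0.359). *Creb1* was at 1.23 by its brightest probe and at -1.26 by another. The glucocorticoid receptor *Nr3c1* was at 0.35 by its brightest probe, at -0.94 with spike-in scaling, and at 2.39 by a dimmer probe. The gene was called under 8 of the 17 alternative settings. These include the mean over its probes, and spike-in scaling, where it was called lower.

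**Figure D4:**
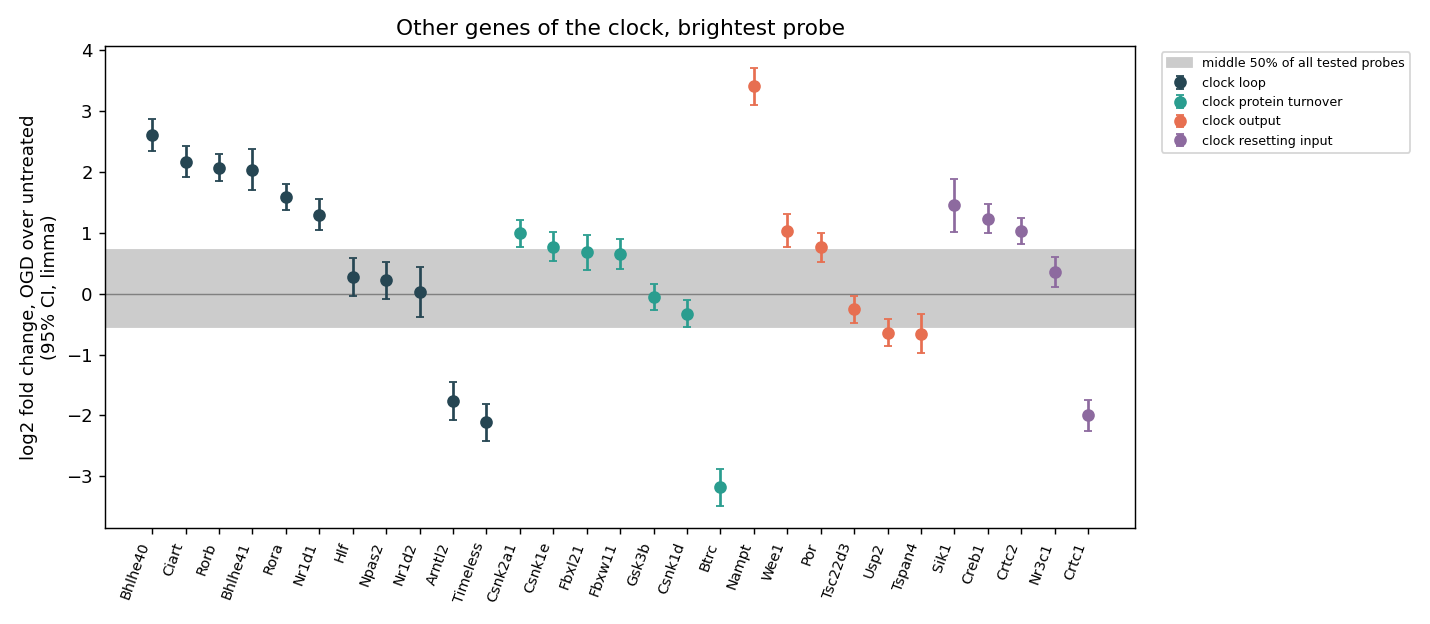
Log2 fold change of OGD over untreated AECs (y axis, with 95% intervals from limma, n = 2 against 2) for the brightest probe of 29 other clock genes, coloured by list. The grey band spans the middle 50% of all tested probes, from -0.54 to 0.71. *Nampt*, *Bhlhe40*, *Ciart* and *Rorb* lie highest and *Btrc*, *Timeless*, *Crtc1* and *Arntl2* lowest.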

How the data were processed

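RNA of 4 AEC cultures was hybridized to single-color arrays, and the authors processed the scans with Feature Extraction (version 11.5.1.1 per the labels). Each deposited file lists, spot by spot, a processed intensity from which background had been removed within the array, with no scaling between arrays. From this intensity, log2 was taken after outlier spots among 43020 non-control spots had been dropped. Spots of a probe were averaged, and each array's 75th percentile was subtracted, as the methods state. A probe had to be well above background on both arrays of a group, by a share of at least 0.5 of its spots. Groups came from the labels and were compared with limma 3.58.1 in R 4.3.3, and the code was tested on simulated data. The brightest probe by mean over the arrays stood for a gene, and every member and any gene of the 4 clock lists could be named. The members and lists were chosen with earlier results of these data known, and some clock genes are not reported here. Alternatives were the methods' t-test, another prior, a replicate block, other scalings, background corrections and filters, the series table, averaged probes and leaving out each array. Promoter and probe sequences were read with Python 3.11.15 and pandas 2.3.3. Figures were drawn with matplotlib 3.10.9. The number of arrays limits the precision.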

Additional observations from a re-analysis of the deposited data

How the results depend on the processing

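Of the 10 members, 5 (*Arntl*, *Nfil3*, *Per2*, *Cry2* and *Dbp*) kept direction and call under all 17 alternatives, between 1.40 and 2.998, 2.46 and 3.75, -4.18 and -1.37, -2.58 and -1.25, and -2.53 and -1.21 in that order (log2 fold changes, as below). Spike-in scaling reversed *Clock* (-1.07), *Per1* (-0.31), *Cry1* (-0.95), *Hlf* (-1.02), *Npas2* (-1.07), *Nr1d2* (-1.26), *Csnk1e* (-0.51), *Csnk2a1* (-0.29), *Fbxl21* (-0.61), *Fbxw11* (-0.63), *Por* (-0.53), *Wee1* (-0.26), *Creb1* (-0.056), *Crtc2* (-0.26) and *Nr3c1* (-0.94), and left 6 other clock genes higher and 17 lower. It also ended the calls of *Nr1d1* (0.013) and *Sik1* (0.16). That follows from the lower level given to every OGD signal. Quantile normalization reversed *Fbxw11* (-0.013), *Nr1d2* (-0.097) and *Nr3c1* (-0.21), the percentile over detected probes *Nr1d2* (-0.12), the mean over probes *Creb1* (-0.015) and *Csnk1d* (1.01), and normexp *Per3* (0.20), while it called *Cry1* (0.85), *Npas2* (1.18) and *Hlf* (0.46) and moved *Arntl2* to -0.38. Quantile normalization also ended the call of *Por* (0.17) and called *Hlf* (0.38) and *Gsk3b* (-0.49), the mean over probes ended that of *Rora* (0.33) and called *Nr1d2* (0.32), and limma with trend called *Clock* (adjusted p = 0.046), and the cause was not tested. Calls over 2-fold were 3938 higher and 4170 lower, 653 and 15526 with spike-in scaling, and 7122 and 1838 with normexp. The methods' t-test called 3 members lower in place of 5, losing *Per3* (adjusted p = 0.143) and *Tef* (adjusted p = 0.0695), and lost *Per1* (adjusted p = 0.0593) among those higher, and *Nr3c1* and *Tspan4* among the other genes. *Tsc22d3*, near the limit, was called lower under 9 alternatives. Leaving out 1 array gave 10742 to 19165 calls over all probes, 3 to 5 members lower, 4 to 7 other clock genes lower, *Cry1* from -0.20 to 0.88 and *Nr1d2* from -0.14 to 0.19, and ended the calls of *Csnk1d*, *Nr3c1*, *Tspan4* and *Usp2* (without untreated replicate 1), of *Csnk1d*, *Nr3c1*, *Tspan4*, *Fbxl21* and *Fbxw11* (without untreated replicate 2) and of *Nr3c1* (without OGD replicate 1), with the lone array of a group assumed to vary like the other group. Arrays of the same number shared only that number (correlation of deviations -0.057), and a replicate block gave 17207 calls in place of 18354, changed no call of a member and lost *Csnk1d* (adjusted p = 0.0607) and *Nr3c1* (adjusted p = 0.0615), which were also lost with median scaling and without the filter on dim probes, and *Nr3c1* with the percentile over detected probes. *Npas2* has no value when a probe must be well above background on all arrays. Dim signals after OGD, as for *Per2*, *Per3* and *Cry1*, are limited by the background.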
